A study of Homo sapiens with 9 samples.

Results

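The insulin-like growth factor binding proteins (IGFBPs) are a family of secreted proteins with 7 genes, IGFBP1 to IGFBP7, all of them members here. Together the genes had 16 probe sets with a single gene symbol, out of 41097 such probe sets covering 19775 genes on the array. A probe set is a group of short array sequences that reports 1 transcript or a few related ones. The members were chosen by gene name, after their levels in all 3 comparisons on these same arrays were known. The differences and calls below therefore describe the family and are not independent evidence about it.

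IGFBPs bind insulin-like growth factors outside the cell and control how much of them reaches the type 1 receptor. Proteases such as pappalysin cut them and release the growth factor, and several members also bind integrins, matrix or heparan sulphate. Glioma cells secrete several IGFBPs, and some of the genes are known to respond to low oxygen, insulin or growth signals.

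The samples were U87 cells, an established human glioma line, collected 72 h after 100000 cells were transfected with 50 nM of a microRNA duplex. The 9 Affymetrix arrays form 3 groups of 3. One group received miR-376a*A, another miR-376a*G and the last a control duplex (miR-control). The A and G forms stand for the unedited and the edited version of miR-376a*, whose precursor can be changed from adenosine to inosine, a base that pairs like guanosine. The labels call the replicates biological without saying how the cultures or array batches were arranged, so p-values measure the spread between these arrays.

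2 microRNAs of this name are held in RefSeq (GRCh38.p14, plus strand). They are shown because the duplexes were named after them. miR-376a* is the older name of the 5p arm. The labels do not give the duplex sequences, so which arm was used and which base was changed are not stated here. The capitals mark the seed, bases 2 to 8, and the 2 arms have different seeds. They lie at chr14:101040788-101040809 and chr14:101040080-101040100.
hsa-miR-376a-5p: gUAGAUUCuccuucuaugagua
hsa-miR-376a-2-5p: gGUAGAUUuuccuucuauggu

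Promoter entries in the RefSeq table (GRCh38.p14) were matched for 5 of the 7 genes. IGFBP2, for which several starts are listed, is not shown, although it shared the array pattern described below, as all 7 members did. The 100 bases before the start are shown for the other 4, which differed in the size of that pattern. They lie at chr7:45921273-45921372 on the minus strand (IGFBP3), chr17:40443350-40443449 on the plus strand (IGFBP4), chr2:216695550-216695649 on the minus strand (IGFBP5) and chr12:53097567-53097666 on the plus strand (IGFBP6). Capitals mark matches to any of 5 motifs searched on both strands in the 250 bases before the start. These were the TATA box TATAAA, its variant TATATA, the GC box GGGCGG, the hypoxia response element core ACGTG and the AP-1 site TGANTCA.
IGFBP3: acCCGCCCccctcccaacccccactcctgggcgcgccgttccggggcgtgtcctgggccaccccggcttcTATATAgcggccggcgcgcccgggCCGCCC
IGFBP4: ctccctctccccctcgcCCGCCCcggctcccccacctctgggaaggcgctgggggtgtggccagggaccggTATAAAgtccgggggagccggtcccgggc
IGFBP5: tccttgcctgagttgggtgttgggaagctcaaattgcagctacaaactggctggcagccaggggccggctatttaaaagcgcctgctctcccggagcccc
IGFBP6: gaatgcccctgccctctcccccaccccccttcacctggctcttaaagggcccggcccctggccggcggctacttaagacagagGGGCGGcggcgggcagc

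The windows did not share one motif. IGFBP3 held 2 GC boxes and the TATATA variant, IGFBP4 held 1 GC box and TATAAA, IGFBP6 held 1 GC box, and IGFBP5 held none of the 5. Of the 3 starts listed for IGFBP2, the first and second held 1 GC box each. No window of the 5 genes held ACGTG or TGANTCA. Among 35116 promoter windows of the same length, 42.6% held the GC box, 18.5% ACGTG, 10.7% TATAAA, 6.57% TGANTCA and 3.73% TATATA. A match is a description of letters, not a binding site. In RefSeq gene order IGFBP1 and IGFBP3 are adjacent protein-coding genes on chromosome 7, and IGFBP2 and IGFBP5 on chromosome 2.

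Array-wide properties bear on every value below. Arrays were scaled alike, with a 2% trimmed mean of 100.01, and their median signal ran from 18.0 to 24.6. 2 arrays went against their labels by correlation across the 12587 tested genes. miR-376a*A replicate 1 was nearer to control replicates 2 and 3 (r = 0.987 and 0.990) than to the rest of its own group (0.925 and 0.934). Replicate 1 of the controls was nearer to the last 2 miR-376a*A arrays (0.990 and 0.982) than to the rest of its own group (0.935 and 0.934). Genes are not independent replicates. Values for the members and counts for the lists are given with all 9 arrays and again without both. With all 9 arrays no gene of any list was called between miR-376a*A and control, where 0% of tested genes were. The GAPDH 3′ to 5′ log2 ratio, a measure of RNA quality, was -0.17 to -0.10 for miR-376a*A, -0.19 to -0.14 for miR-376a*G and -0.12 to -0.08 for control. Of the 10 glioma and astroglial markers 7 were tested. Between miR-376a*G and control 2 of these were lower and 1 higher, beside 15.4% and 18.0% of all tested genes. CHI3L1, which encodes a secreted chitinase-like protein, gave 112, 121 and 115 for miR-376a*G, 1250, 816 and 861 for the controls, and 952, 1297 and 1366 for miR-376a*A (-3.03 against control, adjusted p = 1.3e-05), with the same 3 arrays highest as in the IGFBP genes. SLC1A3, an astroglial glutamate transporter, was lower by -0.92 (adjusted p = 0.0024). ALDH1L1 was higher by 0.68 (adjusted p = 0.020), a call lost when arrays were centred on their medians (0.45). The counts were the same without the 2 arrays, where 25.0% of all tested genes were lower and 31.2% higher. Against miR-376a*G, 3 of the 7 were higher in miR-376a*A and 0 lower with all 9 arrays (16.4% and 21.8% of all). Without the 2 arrays 4 were higher and 1 lower (25.7% and 34.0% of all). Between miR-376a*A and control 4 were then higher and 0 lower (19.0% and 22.9% of all). VIM gave 2107 to 2975, while GFAP stayed at 1.48 to 5.66 and S100B at 0.68 to 1.30, both below the array median throughout. As an alternative scale, arrays were set to their hybridisation controls, spiked RNAs added to each array.

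IGFBP3, the main carrier of insulin-like growth factors in blood, was low in every miR-376a*G sample. Its brighter probe set gave 199, 224 and 198 in miR-376a*G replicates 1, 2 and 3. Control replicates 1, 2 and 3 gave 2707, 1254 and 1101. For miR-376a*A the signals were 991, 3340 and 3053. All miR-376a*G arrays lay below all others, while the control and miR-376a*A arrays overlapped. The second probe set of IGFBP3 repeated this, at 165, 176 and 170 for miR-376a*G, 2405, 800 and 746 for the controls, and 634, 2941 and 2991 for miR-376a*A. Group means for the brighter set were 207 ± 14.8 for miR-376a*G, 1687 ± 887 for control and 2461 ± 1281 for miR-376a*A (SD, n = 3).

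IGFBP1, a form made mainly by liver and known to be lowered by insulin, had the widest range of the family. The signals were 34.9, 20.8 and 35.8 in miR-376a*G replicates 1 to 3. In control replicates 1 to 3 they were 1713, 177 and 80.3, and in miR-376a*A replicates 1 to 3 they were 44.0, 1855 and 1469. The miR-376a*G arrays were again lowest, but miR-376a*A replicate 1 lay just above them and control replicate 1 lay with the other miR-376a*A arrays. The SD was therefore larger than the mean in the controls (657 ± 916) and close to it in miR-376a*A (1123 ± 954). A second IGFBP1 probe set stayed at 0.46 to 2.04 on all arrays and carried no usable signal.

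IGFBP7 binds insulin-like growth factors weakly and is the most distant member. Its main probe set gave 490, 502 and 440 for miR-376a*G, 1346, 961 and 949 for the controls, and 738, 1427 and 1225 for miR-376a*A. A second bright probe set gave 436, 483 and 433, then 1309, 795 and 814, and 681, 1334 and 1276 in the same order. In both sets every miR-376a*G array lay below every other array. The third set was dim, with 5.21 to 11.8 for miR-376a*G, 7.78 to 48.4 for control and 10.9 to 53.0 for miR-376a*A, and there the miR-376a*G and control arrays overlapped.

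IGFBP4, an inhibitory form that pappalysin cleaves, was near zero except on 3 arrays. The signals were 177, 14.6 and 5.12 in control replicates 1 to 3, 4.70, 187 and 145 in miR-376a*A, and 5.18, 8.47 and 20.3 in miR-376a*G. Groups overlapped in every pairing. IGFBP5, which binds extracellular matrix, gave 77.8, 8.95 and 10.1 for control, 8.06, 75.3 and 71.7 for miR-376a*A, and 8.32, 4.74 and 1.40 for miR-376a*G on its main probe set. Another IGFBP5 probe set gave 56.9, 4.52 and 6.15 for control, 11.6, 42.0 and 36.1 for miR-376a*A, and 3.10, 8.52 and 1.32 for miR-376a*G. The other 4 IGFBP5 probe sets stayed between 0.99 and 24.0 and did not pass the filter on low signal.

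IGFBP2, an integrin-binding form described in many gliomas, was dim. It gave 50.0, 10.6 and 2.27 for control, 11.5, 38.9 and 42.9 for miR-376a*A, and 9.43, 2.87 and 8.43 for miR-376a*G. IGFBP6, which prefers IGF-II over IGF-I, varied least, with 1889, 1260 and 1290 for control, 1105, 1989 and 1696 for miR-376a*A, and 1342, 1409 and 1443 for miR-376a*G. The miR-376a*G values of IGFBP6 lay inside the range of both other groups.

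**Figure D1:**
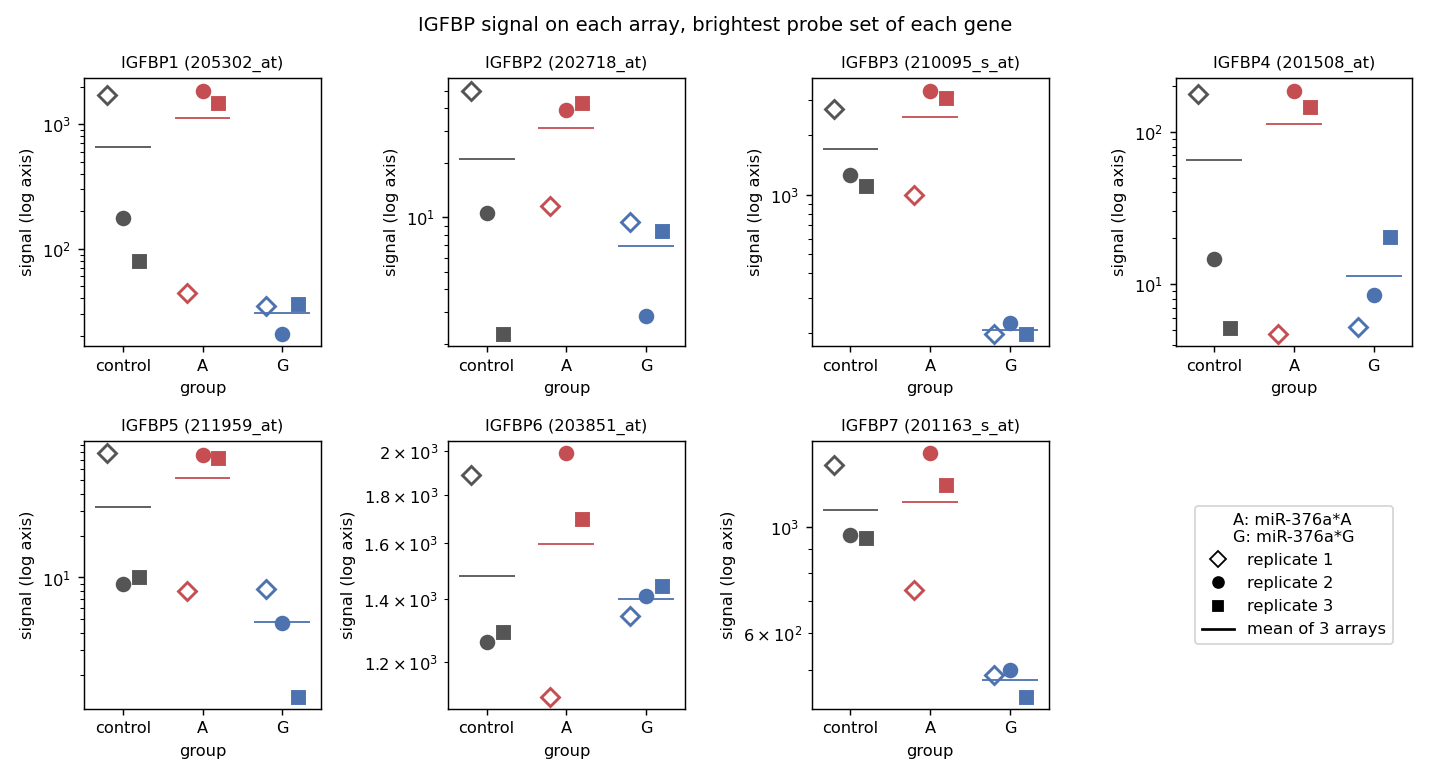
Signal (log axis, arbitrary units) of the brightest probe set of each IGFBP gene on each array, by group, with open symbols for replicate 1 and a line for the mean of 3 arrays. In every panel the open symbol of the control lies with the 2 filled miR-376a*A points, and miR-376a*A replicate 1 lies lower; the miR-376a*G points are lowest in IGFBP1, IGFBP3 and IGFBP7.

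In all 7 genes the same 3 arrays were highest, namely miR-376a*A replicates 2 and 3 and control replicate 1. This held for 14.9% of all tested genes. IGFBP2, IGFBP4 and IGFBP5 were above the array median on these 3 arrays alone. For them the pattern was therefore built into passing the filter on low signal. Below them the members differed. Control replicates 2 and 3 and miR-376a*A replicate 1 stayed well above miR-376a*G for IGFBP3 and IGFBP7, but fell to similar dim levels for IGFBP2, IGFBP4 and IGFBP5. As labelled, group means ran in the order miR-376a*A, control, miR-376a*G in all 7 genes, and the first pair did not differ beyond its spread in any. Scaled to the hybridisation controls, mean log2 values of IGFBP6 and IGFBP7 were instead lower in miR-376a*A than in control, by -0.18 and -0.25.

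**Figure D2:**
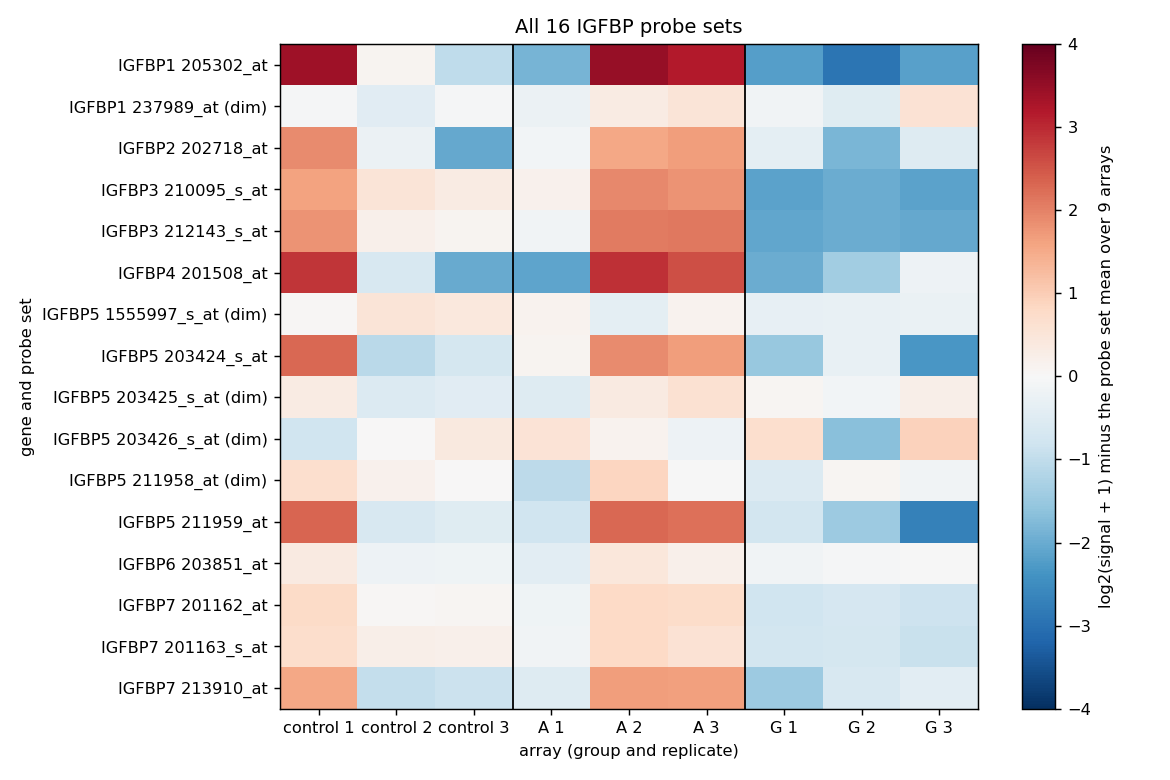
Heat map of log2(signal + 1) for all 16 IGFBP probe sets (vertical) on the 9 arrays (horizontal), each minus its own mean over the arrays; "dim" marks sets above the array median on fewer than 3 arrays. Control replicate 1 and miR-376a*A replicates 2 and 3 are red in the 11 sets that are not dim, and the 3 miR-376a*G arrays are blue in both IGFBP3 sets.

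The effect of the edited form was read from miR-376a*G against control, where 2 of 7 members were called lower and 0 higher. A gene was called when its adjusted p in the limma fit over all tested genes, after Benjamini-Hochberg adjustment, was under 0.05. In the same fit 15.4% of genes were called lower and 18.0% higher. IGFBP3 was lower by a log2 difference of -2.90 (SE 0.47, adjusted p = 0.0016), or 7.48-fold. IGFBP7 was lower by -1.17 (SE 0.24, adjusted p = 0.0051), or 2.24-fold. With the mean of its 3 probe sets, the third of them dim, IGFBP7 differed by -0.99 and was not called (adjusted p = 0.10). Fold changes are on the log2(signal + 1) scale, which understates changes of dim genes. In bulk cells a smaller share of expressing cells and less RNA per cell cannot be told apart. At the level of probe sets, 4 of 11 tested were called lower, both of IGFBP3 and the 2 brighter ones of IGFBP7, against 15.6% of all tested probe sets.

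The other members had wide errors in this comparison. IGFBP1 differed by -3.25 (SE 1.47, adjusted p = 0.121) and IGFBP5 by -2.03 (SE 1.03, adjusted p = 0.163), although neither overlapped between the groups. For IGFBP5 the gap was narrow, 8.32 in miR-376a*G replicate 1 against 8.95 in control replicate 2, both below the array median. Its other tested probe set overlapped, with 8.52 in miR-376a*G replicate 2 against 4.52 in control replicate 2. IGFBP1 was called once the array labelled miR-376a*A replicate 1 was left out, at the same difference (adjusted p = 0.020), since that array enters through the shared estimate of spread. In all, 4 of 7 members had every miR-376a*G array below every control array, as had 22.3% of tested genes. IGFBP4 (-1.26, SE 1.50), IGFBP2 (-0.78, SE 0.93) and IGFBP6 (-0.06, SE 0.22) overlapped and were not called. The median of the members was -1.26, beside 0.12 over all tested genes.

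Without replicate 1 of both miR-376a*A and control, the size for IGFBP1 was smaller and its error much smaller, at -1.97 (SE 0.31, adjusted p = 2.8e-04). IGFBP3 then differed by -2.50 (SE 0.09, adjusted p = 2.1e-08) and IGFBP7 by -1.001 (SE 0.09, adjusted p = 5.5e-06). That made 3 of 7 members lower, where 25.0% of genes were called lower and 31.2% higher. IGFBP2 (0.23, SE 0.59), IGFBP4 (0.14, SE 0.51) and IGFBP6 (0.13, SE 0.08) turned to the other sign and were not called. Scaled also to the hybridisation controls, IGFBP6 was called higher in miR-376a*G, at 0.55 (adjusted p = 1.6e-04). On that scale 7226 of 12587 tested genes were called higher and 1355 lower. For IGFBP4 and IGFBP2 the lower mean of miR-376a*G in the full set came from control replicate 1, since without it both differences turned positive. Because the arrays were left out on their expression values, these p-values are not an independent test.

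The effect of the unedited form was read from miR-376a*A against control. No member was called with all 9 arrays, and 0% of genes were called in either direction by limma, with 463 of 12587 at an unadjusted p under 0.05. No member had groups that did not overlap, against 6.15% of tested genes. The log2 differences were 1.17 (SE 0.93) for IGFBP2, 1.07 (SE 1.50) for IGFBP4, 0.84 (SE 1.03) for IGFBP5, 0.77 (SE 1.47) for IGFBP1, 0.48 (SE 0.47) for IGFBP3, 0.09 (SE 0.22) for IGFBP6 and 0.02 (SE 0.24) for IGFBP7. Adjusted p-values ran from 0.886 to 0.982. The standard error was larger than the difference for IGFBP1, IGFBP4, IGFBP5, IGFBP6 and IGFBP7. The median of the members was 0.77, beside -0.02 over all tested genes.

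Without the 2 arrays, all 7 members were called higher in miR-376a*A than in control, where 19.0% of genes were called higher and 22.9% lower. This sets miR-376a*A replicates 2 and 3 against control replicates 2 and 3. The direction was fixed by which arrays were kept, since these miR-376a*A arrays and the control array left out were the 3 highest in all 7 genes. The calls and p-values are therefore a description. IGFBP4 differed by 4.08 (SE 0.56), from 14.6 and 5.12 in these controls to 187 and 145. IGFBP1 differed by 3.78 (SE 0.33), from 177 and 80.3 to 1855 and 1469. IGFBP5 differed by 2.83 (SE 0.55), IGFBP2 by 2.76 (SE 0.65) and IGFBP3 by 1.44 (SE 0.10). IGFBP6 differed by 0.53 (SE 0.09) and IGFBP7 by 0.47 (SE 0.10). Adjusted p-values of these 7 ran from 2.1e-06 for IGFBP3 to 0.0058 for IGFBP2. When arrays were also scaled to the hybridisation controls, 5 of the 7 stayed called, and IGFBP6 (0.25) and IGFBP7 (0.19) did not. On that scale 981 of 12587 tested genes were higher and 4460 lower. IGFBP2, IGFBP4 and IGFBP5 passed the filter on low signal through the 3 highest arrays alone, so for them a difference was built into being tested. Without that filter all 7 were again called, but on the same member values, so that refit cannot settle this.

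**Figure D3:**
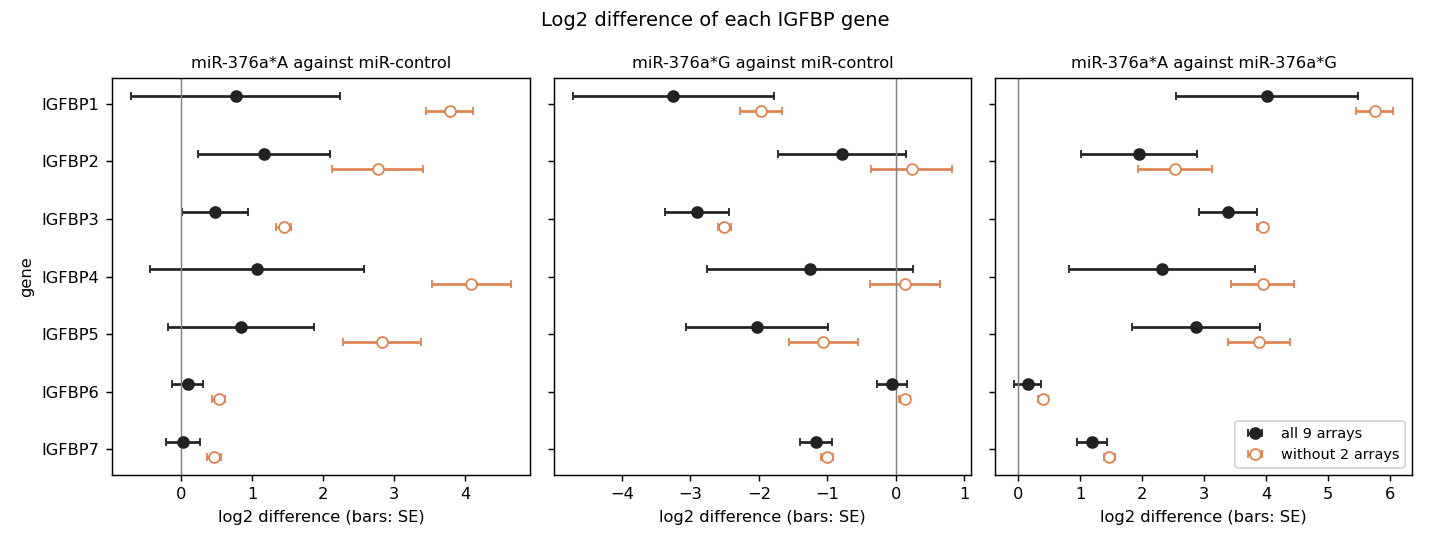
Log2 difference of each IGFBP gene (horizontal, log2(signal + 1) scale) in the 3 comparisons, with all 9 arrays (filled) and without replicate 1 of both miR-376a*A and control (open); bars are standard errors of the fit. In the first panel the open points lie right of the filled ones for all 7 genes, and in the second IGFBP3 and IGFBP7 stay left of zero in both.

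The unedited form was set against the edited one directly, and 2 of 7 members were called higher in miR-376a*A with all 9 arrays, where 16.4% of genes were called higher and 21.8% lower. They were IGFBP3, at 3.38 (SE 0.47, adjusted p = 6.7e-04), and IGFBP7, at 1.19 (SE 0.24, adjusted p = 0.0041). Scaled to the hybridisation controls IGFBP7 was no longer called, at 0.52 (adjusted p = 0.068). The same 4 probe sets of these genes were called, against 16.6% of all probe sets higher. IGFBP1 (4.02, SE 1.47, adjusted p = 0.058) and IGFBP5 (2.87, SE 1.03, adjusted p = 0.055) did not pass. IGFBP1, IGFBP2, IGFBP3 and IGFBP7 had no overlap between the groups, as had 21.8% of tested genes with miR-376a*A higher. The median of the members was 2.32, beside -0.14 over all tested genes. This comparison shares its miR-376a*G arrays with the one against control.

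Without the 2 arrays all 7 members were called higher in miR-376a*A than in miR-376a*G, where 25.7% of genes were called higher and 34.0% lower. Here too the 2 miR-376a*A arrays kept were among the 3 highest in every member, so the direction was given with the choice of arrays. IGFBP1 differed by 5.75 (SE 0.31), from 20.8 to 35.8 in miR-376a*G to 1855 and 1469. IGFBP4 and IGFBP3 each differed by 3.94 (SE 0.51 and 0.09), IGFBP5 by 3.88 (SE 0.50), IGFBP2 by 2.53 (SE 0.59) and IGFBP7 by 1.47 (SE 0.09). IGFBP6 differed by 0.39 (SE 0.08), and its direction depended on scaling, since it was -0.29 (adjusted p = 0.011) with the hybridisation controls as the reference. Those controls had a mean log2 signal of 7.82 to 7.92 on the miR-376a*A arrays, 7.51 to 7.70 on control arrays and 7.12 to 7.29 on the miR-376a*G arrays. Control replicate 1 alone enters this comparison through the shared estimate of spread only. Leaving it out gave 5 called members, all higher, beside 2291 of 12587 tested genes. Leaving out miR-376a*A replicate 1 alone also gave 5, all higher, beside 2437.

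Genes with the most similar pattern over the 9 arrays were named for each member by Pearson's r of log2 values, as a description. For IGFBP3 they were GJB2 (0.999), TGFA (0.998) and ADM (0.998). IGFBP1 was closest to CELSR3 (0.997), MGARP (0.992) and CITED2 (0.992). IGFBP7 was closest to TCF4 (0.998), SCG5 (0.996) and POFUT4 (0.993), and IGFBP4 to H6PD (0.990), CDH11 (0.985) and GABRQ (0.983). IGFBP6 was closest to TMEM128 (0.986), C12orf57 (0.983) and NMRK1 (0.981), IGFBP5 to GLT8D1 (0.980), SHROOM2 (0.979) and FAM8A1 (0.978), and IGFBP2 to CHEK1 (0.962), SRPRA (0.959) and CAPN5 (0.959). No member was among the 3 nearest genes of another.

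Of 6 listed genes for IGF ligands and receptors, the 3 tested were all receptors, IGF1R, IGF2R and INSR. None of the 3 was called by limma between miR-376a*G and control, where 15.4% of all tested genes were lower and 18.0% higher. Of the 3, IGF1R alone had an unadjusted p under 0.05 (0.028), as had 5541 of 12587 tested genes. With 3 genes these counts say little about the receptors. The median difference of the 3 was 0.06, beside 0.12 over all tested genes. IGF1R, the main signalling receptor, gave 39.2, 29.0 and 41.4 for miR-376a*G, 66.7, 53.7 and 42.8 for the controls, and 50.1, 62.9 and 58.4 for miR-376a*A. It was higher in miR-376a*A than in miR-376a*G by 0.64 (SE 0.21, adjusted p = 0.041). Scaled to the hybridisation controls that difference was -0.03 and was not called. On that scale IGF2R and INSR were called higher in miR-376a*G than in control (0.46 and 0.54) and lower in miR-376a*A than in miR-376a*G (-0.68 and -0.72). There 5592 of 12587 tested genes were higher in miR-376a*G than in control. Lower in miR-376a*A than in miR-376a*G were 8205. Without the 2 arrays 0 of 3 were called against control in either form. Of all tested genes, 31.2% were then higher and 25.0% lower in miR-376a*G, and 19.0% higher and 22.9% lower in miR-376a*A. IGF1R was again higher in miR-376a*A than in miR-376a*G (0.73), as were 25.7% of all. IGF2R, which clears IGF-II, ran from 839 to 1083 on the 9 arrays. IGF1 gave 8.95 to 21.9 and was not tested.

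Among proteases that cut IGFBPs and their regulators, 3 of 10 tested genes were lower in miR-376a*G than in control and 0 higher, with a median of -0.31 (15.4% of all tested genes were lower and 18.0% higher). Centring arrays on their medians made it 6 lower and 0 higher, where 2595 of 12587 tested genes were lower and 1068 higher. PAPPA, which encodes pappalysin and cleaves IGFBP4 and IGFBP5, gave 424, 342 and 367 for miR-376a*G, 725, 708 and 749 for the controls, and 570, 644 and 578 for miR-376a*A. It was lower in miR-376a*G than in control by a log2 difference of -0.95 (SE 0.11, adjusted p = 2.4e-04). Its probe set is of a kind that can also bind related transcripts. Its 3 groups did not overlap, and the array labelled control replicate 1 lay with its own group. HTRA1, a secreted serine protease that carries an IGFBP-type domain, differed by -0.82 (adjusted p = 5.9e-04) and ADAM28 by -0.76 (adjusted p = 0.037). Against miR-376a*G, 4 of the 10 were higher in miR-376a*A, namely HTRA1 (1.06), PAPPA (0.66), ADAM12 (0.51) and ADAM9 (0.47), where 16.4% of all tested genes were higher. Scaled to the hybridisation controls 1 of the 10 was higher and 4 were lower, where 677 of 12587 tested genes were higher and 8205 lower. The 4 lower genes were PAPPA2 (-0.77), STC1 (-0.34), STC2 (-0.69) and KLK3 (-1.05). The probe set of KLK3 is of the same kind as that of PAPPA. Of HTRA1, PAPPA, ADAM12 and ADAM9, HTRA1 alone stayed higher. ADAM12 (-0.16) and ADAM9 (-0.20) turned sign without a call, as did PAPPA at a difference near zero. That scaling also ended the call of ADAM28 in miR-376a*G against control (-0.36). Without the 2 arrays, 5 were lower and 1 higher between miR-376a*G and control (25.0% and 31.2% of all tested genes). Between miR-376a*A and control 5 were higher and 2 lower (19.0% and 22.9% of all). In miR-376a*A against miR-376a*G 5 were higher and 0 lower (25.7% and 34.0% of all).

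Other genes whose products carry an IGFBP-type domain went both ways. Between miR-376a*G and control 3 of 10 rose and 2 fell, with a median of -0.08, beside 18.0% higher and 15.4% lower among all tested genes. HTRA1, counted with the proteases, was 1 of those that fell. The angiogenic matricellular gene CCN1 gave 528, 464 and 547 for miR-376a*G against 175, 230 and 269 for control, a rise of 1.21 (SE 0.17, adjusted p = 8.8e-04). ESM1, which encodes endocan, rose from 8.21, 4.40 and 5.57 to 39.2, 29.3 and 36.4 (2.37, SE 0.29, adjusted p = 4.1e-04). ESM1 passed the filter on low signal through the 3 miR-376a*G arrays alone, so a difference was built into its being tested. Its probe set, like that of PAPPA, is of a kind that can also bind related transcripts. CRIM1 rose by 0.52, a call lost when arrays were centred on their medians (0.29). CCN4 fell by a log2 difference of -2.89 (SE 0.62, adjusted p = 0.0070), from 176, 53.2 and 44.1 to 11.5, 6.97 and 9.61. On the miR-376a*A arrays CCN4 gave 41.7, 152 and 169, so the same 3 arrays were highest as for the members. Leaving out both arrays, the list had 3 higher and 2 lower between miR-376a*G and control (31.2% and 25.0% of all tested genes). It had 4 and 2 between miR-376a*A and control (19.0% and 22.9% of all). In miR-376a*A against miR-376a*G it had 4 and 4 (25.7% and 34.0% of all). With all 9 arrays that comparison had 2 higher and 3 lower (16.4% and 21.8% of all).

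Partners that bind IGFBPs at the cell surface or in the nucleus were lower in miR-376a*G for 5 of 8 tested genes, with 0 higher and a median of -0.63, where 15.4% of all tested genes were lower and 18.0% higher. ITGB3, the integrin beta 3 subunit, differed by -3.29 (adjusted p = 1.7e-06). ITGA5 and ITGB1, the subunits of the integrin that IGFBP1 binds, both differed by -0.75 (adjusted p = 0.0042 and 0.0026). TMEM219, described as a cell death receptor for IGFBP3, differed by -0.66 (adjusted p = 0.0012), and ITGAV by -0.60 (adjusted p = 0.0029). Scaled to the hybridisation controls 2 of the 8 stayed lower and 1 was higher, where 946 of 12587 tested genes were lower and 5592 higher. TMEM219 (-0.26), ITGA5 (-0.35) and ITGAV (-0.20) lost their calls. Without the 2 arrays the count was 5 lower and 1 higher, where 25.0% and 31.2% of all tested genes were, and 6 of 8 were higher in miR-376a*A than in control with 0 lower (19.0% and 22.9% of all). All 8 were then higher in miR-376a*A than in miR-376a*G (25.7% of all), with arrays left out on their expression values. With all 9 arrays 5 of 8 were higher and 0 lower (16.4% and 21.8% of all). Scaled to the hybridisation controls, all 9 arrays gave 2 of 8 higher and 1 lower. On that scale 677 of 12587 tested genes were higher and 8205 lower.

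Downstream, 3 of 23 tested genes of insulin and IGF signalling rose between miR-376a*G and control and 5 fell, with a median of 0.07, beside 18.0% higher and 15.4% lower among all tested genes. IRS1, the adaptor that the IGF1 receptor phosphorylates, gave 120, 106 and 113 for miR-376a*G, 532, 437 and 469 for the controls, and 398, 540 and 570 for miR-376a*A. Its difference was -2.07 (SE 0.15, adjusted p = 3.1e-05), and no miR-376a*G array overlapped the others. GRB10, an inhibitory adaptor, differed by -1.02 (adjusted p = 3.4e-04), SOS1 by -0.996 and PIK3CB by -1.88 (adjusted p = 0.0031 and 0.0048). AKT2 rose by 1.11 (adjusted p = 0.0090). Without the 2 arrays 8 rose and 5 fell (31.2% and 25.0% of all tested genes). Scaled to the hybridisation controls 7 rose and 4 fell, where 5592 of 12587 tested genes rose and 946 fell. Between miR-376a*A and control 11 were higher and 6 lower without the 2 arrays (19.0% and 22.9% of all). In miR-376a*A against miR-376a*G, again without the 2 arrays, 10 were higher and 6 lower (25.7% and 34.0% of all). With all 9 arrays that comparison had 6 higher and 2 lower (16.4% and 21.8% of all). Scaled to the hybridisation controls, all 9 arrays gave 2 higher and 11 lower, where 677 of 12587 tested genes were higher and 8205 lower. The IGF2 mRNA-binding proteins, named alike but unrelated to the family, had 0 of 2 called between miR-376a*G and control. Among all tested genes 15.4% were lower there and 18.0% higher. IGF2BP3 was higher in miR-376a*A than in miR-376a*G (0.72, SE 0.19, adjusted p = 0.015), but not when scaled to the hybridisation controls (0.05). With both arrays left out, IGF2BP3 was again higher in miR-376a*A than in miR-376a*G (0.90), IGF2BP2 was higher in miR-376a*G than in control (0.41), and both genes were higher in miR-376a*A than in control (0.38 for IGF2BP2 and 0.71 for IGF2BP3). In the same order, 25.7%, 31.2% and 19.0% of all tested genes were higher.

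**Figure D4:**
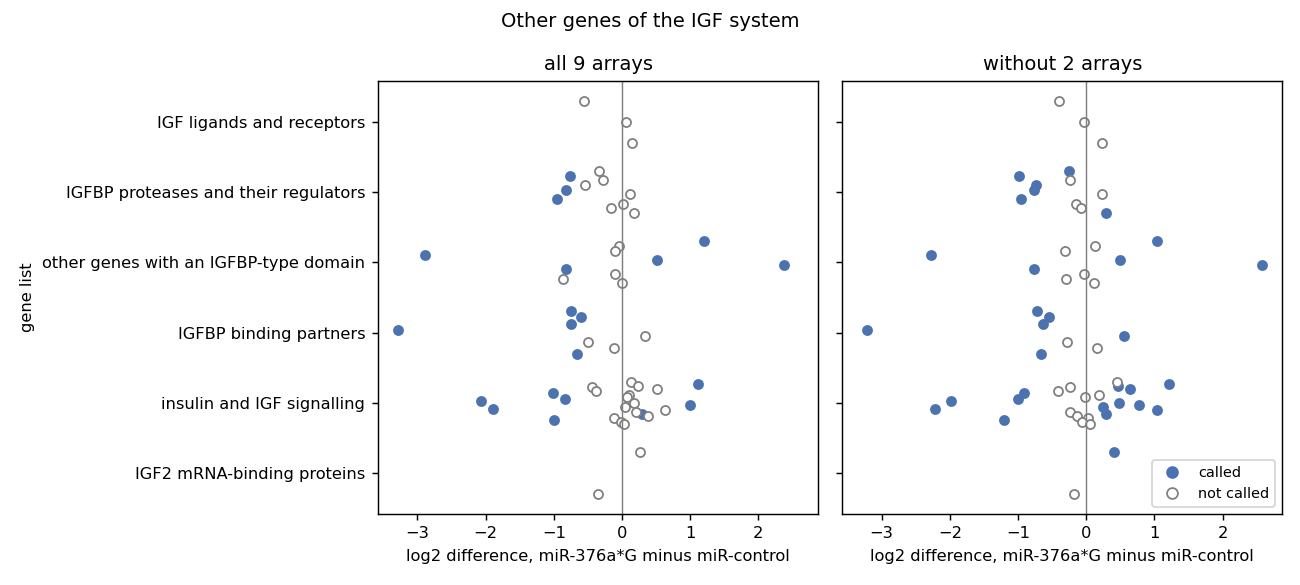
Log2 difference between miR-376a*G and control (horizontal, log2(signal + 1) scale) for each tested gene of 6 lists of the IGF system (vertical), with all 9 arrays on the left and without 2 arrays on the right; filled points are called genes. On the left, the called binding partners lie left of zero and the called genes with an IGFBP-type domain lie on both sides.

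Neuronal markers, as genes of another cell type, did not move as 1 group. Of 6 neuronal markers 4 were tested, and between miR-376a*G and control 2 were lower and 1 higher (15.4% and 18.0% of all tested genes). SNAP25, a synaptic vesicle fusion gene, gave 1498, 240 and 214 in control replicates 1 to 3, 254, 1656 and 1825 in miR-376a*A, and 197, 192 and 179 in miR-376a*G, with the same 3 arrays highest as in the IGFBP genes. MAP2, a dendritic microtubule gene, was lower on those 3 arrays than on the other control and miR-376a*A arrays, at 210, 473 and 517 in control, 486, 212 and 185 in miR-376a*A, and 83.1, 79.4 and 72.9 in miR-376a*G. SYT1 gave 116 to 162 in control, 144 to 150 in miR-376a*A and 54.7 to 69.5 in miR-376a*G. TUBB3 was highest in miR-376a*G, at 1791 to 2002 against 1434 to 1581 in control and 1556 to 1728 in miR-376a*A. With both arrays left out, 3 were lower and 1 higher between miR-376a*G and control (25.0% and 31.2% of all tested genes). Between miR-376a*A and control 1 was higher and 1 lower (19.0% and 22.9% of all). In miR-376a*A 3 were higher than in miR-376a*G (25.7% of all). With all 9 arrays that comparison had 2 higher and 1 lower (16.4% and 21.8% of all). The mean log2 signal of the 6 markers was 6.74 to 7.41 in control, 6.86 to 7.39 in miR-376a*A and 6.08 to 6.47 in miR-376a*G. The neuronal markers RBFOX3 and STMN2 stayed at 8.29 to 19.2 and 3.39 to 15.7, too dim to be tested. The part of these markers in the IGFBP differences was not tested.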

How the data were processed

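The authors deposited 1 linear intensity per probe set and array, for 54675 probe sets on 9 arrays. The submitters' processing notes name GCOS 1.4.0.036 for this step. Not given in the sources used here: its summarisation settings and the genome build. These deposited intensities were already scaled, as the trimmed means show, so a difference means relative to an array's other signals. Detection calls were not used here. No pair of arrays held identical values.

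Gene names came from the platform's probe table. Those of several genes (1801) or not in the table (11777) were left out, as were 7 of 112 list entries that had no single-symbol probe set. Values were tested as log2(signal + 1). Each gene was represented by its probe set with the highest mean over the 9 arrays. Genes above the array median on at least 3 arrays were tested (12587 genes). limma 3.58.1 in R 4.3.3 was fitted to all 9 arrays, with 1 coefficient per group, 6 residual degrees of freedom and an intensity trend. All adjusted p-values are two-sided and from limma, Benjamini-Hochberg adjusted over all tested genes, or over all tested probe sets where probe sets are counted. Fits that leave arrays out kept the same genes. The steps were tested on simulated data. Alternatives were another pseudocount, filter, scaling or probe set rule, other sets of arrays, array weights and a replicate block; the refits of the IGF lists under other scalings were added after seeing the data.

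Named genes were all 7 members, up to 4 called genes with the smallest p per IGF list and comparison, the 3 nearest genes of each member and the markers. The members and lists were chosen with earlier results of these data known. IGF1, IGF2R, INSR, STC1, STC2, PAPPA2, KLK3 and IGF2BP2 fall outside this rule and were named after their values were seen. The precision is limited by 3 arrays per group.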

Additional observations from a re-analysis of the deposited data

How the results depend on the processing

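Alternatives changed 1 choice at a time: the pseudocount, the filter on low signal, the scaling, the probe set rule, the arrays used, array weights and the replicate block. Precision is limited by 3 arrays per group, and IGFBP2, IGFBP4 and IGFBP5 were above the array median on 3 of 9 arrays. Of the planned values, 110 of 136 between miR-376a*A and control kept direction and call, as did 123 of 136 between miR-376a*G and control and 114 of 136 between the 2 miR-376a* forms (A minus G). Some alternatives could not change a difference, so its direction was fixed in them. These were leaving out an array of the group not compared, the replicate block and the other filters. Between miR-376a*A and control a kept call always meant not called. The causes of changes were not tested unless named.

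The labels do not say whether replicate numbers pair the arrays. Deviations of same-numbered miR-376a*A and control arrays from their group means correlated at -0.88, -0.61 and -0.56. Replicate 1 went against its label in both groups, so these correlations cannot show whether the numbers pair the arrays. With the replicate block, 0, 2936 and 3453 genes and 0, 2 and 2 members were called between miR-376a*A and control, miR-376a*G and control, and between the 2 forms, beside 0, 4205 and 4804 genes and 0, 2 and 2 members without it.

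Centring arrays on their medians called 4 members and 7 probe sets between the 2 forms. It changed the split of all genes between miR-376a*G and control from 2268 higher and 1937 lower to 1068 and 2595, with the median at -0.12, and between the 2 forms from 2065 and 2739 to 2965 and 1262. Scaling to the hybridisation controls moved the medians of all genes to -0.29, 0.51 and -0.81. It called 6538 genes between miR-376a*G and control (5592 higher, 946 lower) and 8882 between the 2 forms (677 higher, 8205 lower), with 1 member and 2 probe sets in the latter. It turned IGFBP6 to -0.18 and IGFBP7 to -0.25 between miR-376a*A and control, and IGFBP6 to 0.34 between miR-376a*G and control and -0.52 between the 2 forms. Quantile normalization turned IGFBP7 to -0.043 between miR-376a*A and control. The mean of all probe sets called 1 member between miR-376a*G and control, as IGFBP7 fell out (-0.99, adjusted p = 0.10).

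Without both arrays that went against their labels, 5268, 7066 and 7508 genes were called in the 3 comparisons, and 7 members and 11 probe sets in each of the 2 comparisons with miR-376a*A. IGFBP2, IGFBP4 and IGFBP6 then turned to 0.23, 0.14 and 0.13 between miR-376a*G and control. Array weights called 5513, 7865 and 7866 genes, with 7 members and 11 probe sets in those 2 comparisons. IGFBP2 and IGFBP6 turned to 0.018 and 0.11 between miR-376a*G and control. The same 2 arrays had the lowest weights, 0.15 (miR-376a*A) and 0.17 (control), where the rest had 0.67 to 2.93. Weighting thus largely repeated their removal and is not a separate check of these calls. Combinations of leaving out both arrays with another choice were chosen after seeing the data. With the hybridisation controls 5, 4 and 7 members were called, beside 5441, 8581 and 10031 of 12587 genes. Between miR-376a*G and control 1 of the called members was higher and 3 were lower, beside 7226 genes higher and 1355 lower. Between the 2 forms 6 were higher and 1 lower, beside 1060 genes higher and 8971 lower. IGFBP2, IGFBP4 and IGFBP6 were 0.65, 0.55 and 0.55 between miR-376a*G and control, while IGFBP6 was -0.29 between the 2 forms. With centring and with quantile normalization 7, 4 and 7 were called. Beside them stood 4944, 6639 and 7121 genes with centring, and 5223, 7067 and 7597 with quantile normalization. IGFBP6 was 0.14 under quantile normalization. With no filter 7, 3 and 7 were called, beside 4883, 7150 and 7570 of 19775 genes. IGFBP2, IGFBP4 and IGFBP6 were then 0.23, 0.14 and 0.13.

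Leaving out 1 array at a time gave 2 to 5 members and 4 to 9 probe sets between the 2 forms, 2 to 3 members and 3 to 5 probe sets between miR-376a*G and control, and 0 between miR-376a*A and control. Called genes ran from 2994 to 4952 between miR-376a*G and control and from 3497 to 5602 between the 2 forms. Signs turned between miR-376a*A and control for IGFBP1 (-0.18 to 2.50), IGFBP6 (-0.087 to 0.34) and IGFBP7 (-0.17 to 0.30). They turned between miR-376a*G and control for IGFBP2 (-1.75 to 0.23), IGFBP4 (-2.29 to 0.14) and IGFBP6 (-0.16 to 0.13), and between the 2 forms for IGFBP6 (-0.029 to 0.39).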

Other observations

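2 relatives of the family were dim on all arrays. IGFBPL1, which encodes an IGFBP-like protein, gave 1.52 to 5.13 with a median of 2.08 over the 9 arrays. IGFBP7-AS1, an antisense transcript at the IGFBP7 locus, gave 0.38 to 5.13 with a median of 1.03. Neither was above the array median on any array.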
